A study of Mus musculus with 48 samples.

Results

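The adult globin genes of the mouse and 2 genes of the red cell lineage were followed through mRNA sequencing of brain hemispheres. The 6 genes are the alpha globins Hba-a1 and Hba-a2, the beta globins Hbb-bs and Hbb-bt, the heme synthesis gene Alas2 and Slc4a1, which encodes the anion exchanger band 3. They were taken by symbol from the 56893 genes of the count table, in all 48 libraries, and all 6 were among the 17352 genes that passed the filter on low counts. Slc4a1 passed only through the refed mice: 9 of 16 refed libraries reached the minimum of 0.951 counts per 1000000 (CPM), and 0 of 32 others did, so that its difference was built into its selection and is given as a description.

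Each library came from 1 hemisphere of 1 mouse, and 12 groups of 4 mice were formed by sex, genotype and feeding state. Control mice carried floxed Grin1 alleles (Grin1fl/fl in 23 mice, Grin1fl/+ in 1 unrestricted female) and no Cre. Knockout mice were Aldh1a1+/P2A-CreERT2::Grin1fl/fl, in which the Aldh1a1 locus drives an inducible Cre recombinase, so that Grin1, an NMDA receptor subunit, can be lost only in cells that express Aldh1a1, such as a subset of midbrain dopamine neurons; induction is not given in the sources used here. Unrestricted mice were housed alone for about 48 hours with chow, restricted mice were killed after 2 nights of food restriction, and refed mice had 3 further days of free access to grain-based pellets from an automatic feeder. Mice were 5.5 to 8.5 months old, and the study asked how feeding state, sex and the loss of Grin1 change the brain transcriptome.

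Red cells carry oxygen on hemoglobin, a tetramer of 2 alpha and 2 beta chains with a heme in each chain. Alas2 makes the first committed molecule of heme in erythroid cells, while its relative Alas1 serves other cells, and band 3 exchanges bicarbonate for chloride across the red cell membrane and anchors its cytoskeleton. Young red cells (reticulocytes) still hold globin and Alas2 mRNA after losing their nucleus, so blood left in brain vessels contributes these transcripts to a brain library, and some neurons and glia also express globins. In a bulk sample, more cells of a type and more RNA per cell cannot be told apart, and whether blood was cleared from the vessels is not given in the sources used here.

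Near-identical sequence limits how well the globins can be told apart. Hba-a1 (GRCm39 chr11:32233186-32234504, plus strand) and Hba-a2 (chr11:32246168-32247320, plus strand) have coding sequences of 426 bases that differ at 1 base, C381T, written as the Hba-a1 base, the position from the start codon and the Hba-a2 base. Hbb-bs (chr7:103475730-103482989, minus strand) and Hbb-bt (chr7:103461727-103465047, minus strand) likewise differ at 1 of 441 coding bases, C417T. Of all stretches of 100 bases in the Hba-a1 and Hba-a2 transcripts, 70.1% and 81.8% were also in the partner, and for Hbb-bs and Hbb-bt the shares were 58.6% and 54.7%. The division of reads within a pair is therefore an estimate, and sums over the alpha pair and the beta pair are given beside the single genes. Alas2 (chrX:149330371-149353634, plus strand, 11 exons) and Slc4a1 (chr11:102239650-102257029, minus strand, 20 exons) had no such partner in the set.

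Promoter sequences were available for 5 of these genes, and Slc4a1 had no entry in the promoter set used. The 250 bases before the RefSeq start of each gene were taken from RefSeq (GRCm38.p6) and placed on GRCm39 by exact match, 5′ to 3′ on the gene's strand. Capitals mark matches on either strand to AGATAA or TGATAA (bound by GATA factors), CCACACCC or CCNCNCCC (bound by Krüppel-like factors), TATAA or ATAAAA, and CCAAT; overlapping matches form 1 run of capitals. The Hba-a2 window (chr11:32246242-32246491) matched that of Hba-a1 at all 247 bases they share and is not repeated. The windows of Hba-a1 (chr11:32233422-32233671, plus strand), Hbb-bs (chr7:103477136-103477385, minus strand), Hbb-bt (chr7:103463131-103463380, minus strand) and Alas2 (chrX:149330163-149330412, plus strand) read as follows.
Hba-a1: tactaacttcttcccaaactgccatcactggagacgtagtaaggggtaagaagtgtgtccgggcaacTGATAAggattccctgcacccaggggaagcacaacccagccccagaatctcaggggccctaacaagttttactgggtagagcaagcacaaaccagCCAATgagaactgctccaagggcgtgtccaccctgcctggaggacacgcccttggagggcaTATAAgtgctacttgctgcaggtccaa
Hbb-bs: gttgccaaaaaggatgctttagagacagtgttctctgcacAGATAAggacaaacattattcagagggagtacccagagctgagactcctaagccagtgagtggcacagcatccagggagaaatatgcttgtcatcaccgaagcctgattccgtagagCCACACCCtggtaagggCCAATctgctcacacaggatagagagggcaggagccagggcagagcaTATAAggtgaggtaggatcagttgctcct
Hbb-bt: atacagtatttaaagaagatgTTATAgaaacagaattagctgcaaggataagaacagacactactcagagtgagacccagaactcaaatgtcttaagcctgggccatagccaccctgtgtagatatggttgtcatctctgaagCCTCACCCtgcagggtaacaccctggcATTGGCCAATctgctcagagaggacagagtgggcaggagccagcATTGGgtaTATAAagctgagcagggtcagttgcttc
Alas2: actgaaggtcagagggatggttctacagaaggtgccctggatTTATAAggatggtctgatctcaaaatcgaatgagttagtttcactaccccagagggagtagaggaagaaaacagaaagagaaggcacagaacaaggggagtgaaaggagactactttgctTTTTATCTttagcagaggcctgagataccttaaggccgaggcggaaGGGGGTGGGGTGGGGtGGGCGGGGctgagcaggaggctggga

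The TATA motif lay 27 to 30 bases before the start at its upstream end in the 4 globins, and a CCAAT in the same orientation lay 71 to 91 bases before it. A GATA motif was found in Hba-a1, Hba-a2, Hbb-bs and Alas2, and its letters were not in the Hbb-bt window. Hbb-bs alone held CCACACCC, 93 to 86 bases before its start. Among 27025 mouse promoters of the same length, 17% held a GATA motif, 3.2% held CCACACCC, 45.6% held CCNCNCCC, 31.9% held TATAA or ATAAAA and 34.5% held CCAAT. The beta promoters matched each other at 51.0% of aligned bases, while each pair had nearly the same coding sequence. A match is a description of the sequence and not of binding.

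Library totals ran from 7574827 to 16185373 counts. Summed neuron markers were between 4336 and 5956 CPM and midbrain dopamine neuron markers between 37.1 and 76.7 CPM in every library, so markers of the labelled tissue were present. Grin1 was at 351 ± 49.3 CPM in control and 356 ± 29.4 CPM in knockout mice (SD, n = 24 each), a log2 change of 0.02 (SE 0.04, edgeR adjusted p = 1.00). A loss limited to few cells and no loss cannot be told apart from this level in a hemisphere. The male control refed replicate 1 library held skeletal muscle transcripts at 4294 CPM, against at most 14.9 CPM in the other refed libraries, and female control restricted replicate 2 held them at 282 CPM. White cell markers reached 59.4 CPM in female control unrestricted replicate 3, against at most 23.5 CPM in the other unrestricted libraries. All 16 refed libraries had library numbers of at most 28, as did 5 unrestricted and 7 restricted ones, while 11 unrestricted and 9 restricted libraries had numbers from 29; values within the lower numbers are given beside the feeding results.

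Alpha globin mRNA was about 2.5 times as abundant in refed as in unrestricted brains. Hba-a2 lay between 88.8 and 275 CPM in the 16 unrestricted mice (median 130), between 76.0 and 203 CPM in the 16 restricted mice (median 116), and between 213 and 709 CPM in the 16 refed mice (median 306). Every refed mouse was above every restricted mouse, and 1 unrestricted female reached into the refed range. The mean rose from 139 ± 42.3 to 347 ± 148 CPM (SD, n = 16), a log2 change of 1.33 (standard error, SE, 0.14, quasi-likelihood test of edgeR, Benjamini-Hochberg adjusted p = 6.98e-08). It had the smallest p of all genes tested in that comparison.

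Hba-a1 followed the same order. It was at 29.99 to 113 CPM in unrestricted mice (median 48.9), 25.4 to 70.6 CPM in restricted mice (median 44.6) and 84.8 to 267 CPM in refed mice (median 121). Again only refed and restricted mice did not overlap. Refed mice were higher than unrestricted mice by 1.29 on the log2 scale (SE 0.14, edgeR adjusted p = 7.82e-08) and higher than restricted mice by 1.53 (SE 0.15, adjusted p = 7.14e-11); for Hba-a2 the latter change was 1.48 (SE 0.14, adjusted p = 1.01e-10).

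The beta globins moved in the same direction. Hbb-bs, with the highest level per transcript length of the 6, was at 145 to 823 CPM in unrestricted mice (median 293), 150 to 480 CPM in restricted mice (median 270) and 406 to 1468 CPM in refed mice (median 599). Its ranges overlapped, since 2 unrestricted females and 2 restricted mice were above the lowest refed mouse. The refed mean of 676 ± 262 CPM was above the unrestricted mean of 325 ± 163 CPM by 1.10 on the log2 scale (SE 0.16, edgeR adjusted p = 6.94e-05). Against restricted mice the change was 1.23 (SE 0.16, adjusted p = 3.29e-07).

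Hbb-bt, the less abundant beta gene, was at 19.7 to 122 CPM in unrestricted mice (median 42.7), 17.3 to 61.9 CPM in restricted mice (median 31.8) and 67.2 to 267 CPM in refed mice (median 94.2). No restricted mouse reached the lowest refed mouse, and 2 unrestricted mice did. The log2 change was 1.34 against unrestricted mice (SE 0.18, edgeR adjusted p = 1.00e-05) and 1.68 against restricted mice (SE 0.19, adjusted p = 3.48e-09). Together the 4 globins made up 0.0565% of all counts in unrestricted, 0.0489% in restricted and 0.127% in refed mice on average.

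**Figure D1:**
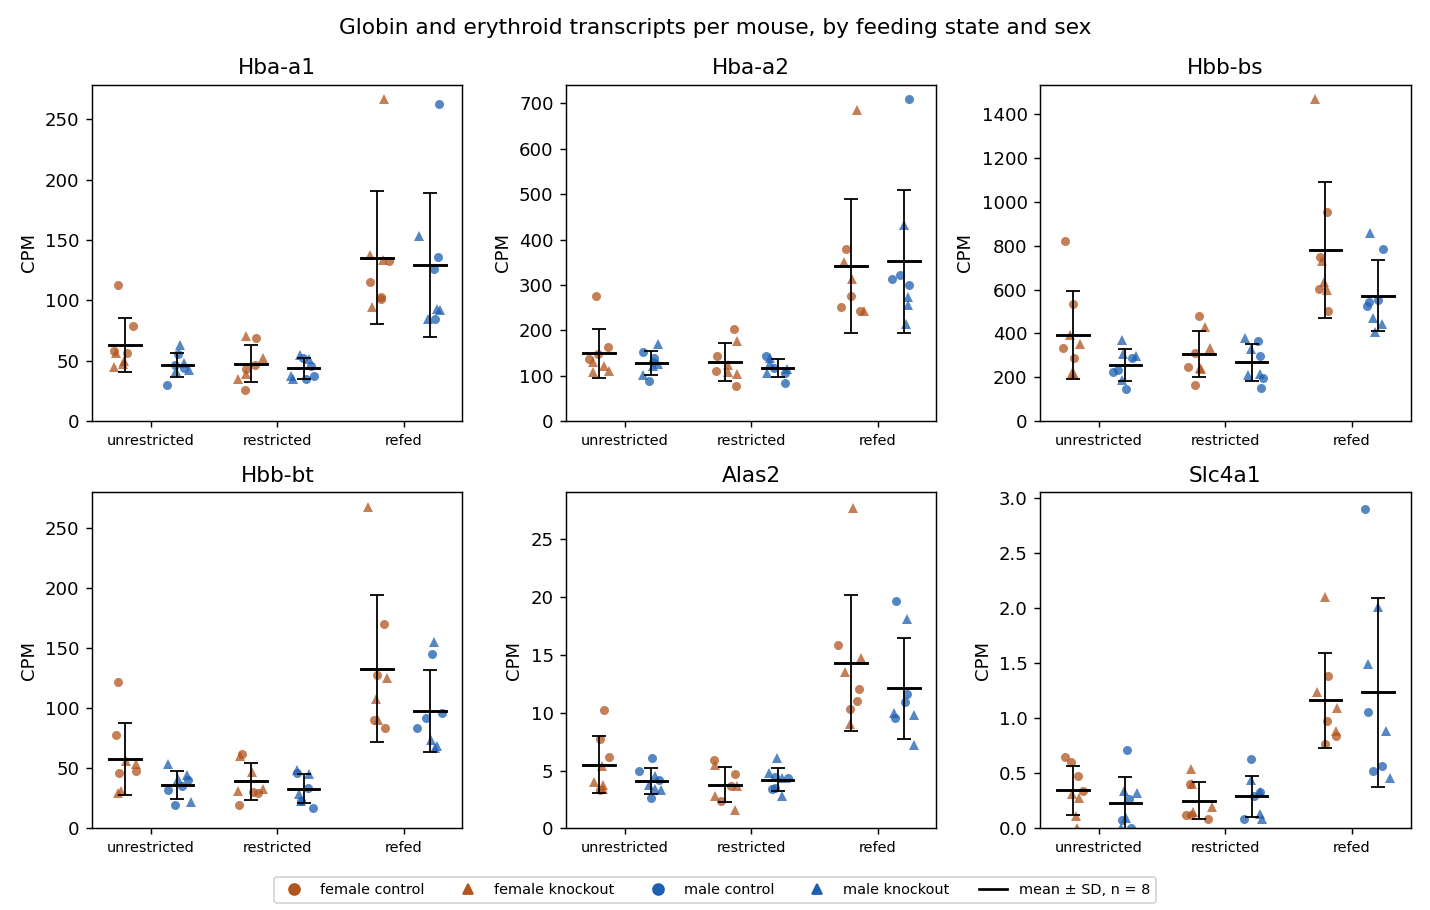
CPM of each gene in each of the 48 mice, by feeding state (x axis) and sex (colour), with circles for controls, triangles for knockouts, and black bars for the mean and SD of 8 mice; each panel has its own scale starting at 0. The refed means lie above those of both other states in every panel, while single mice overlap; the highest unrestricted female, at 113 CPM of Hba-a1, lies in the refed range.

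Alas2, the enzyme gene of the set, rose with the globins. It was at 2.62 to 10.2 CPM in unrestricted mice (median 4.09), 1.57 to 6.11 CPM in restricted mice (median 3.99) and 7.23 to 27.7 CPM in refed mice (median 11.3). Refed and restricted mice did not overlap, and 2 unrestricted mice were above the lowest refed mouse. The mean of 13.2 ± 5.14 CPM in refed mice was 2.80 times that fitted for unrestricted mice (log2 change 1.49, SE 0.16, edgeR adjusted p = 6.98e-08), and the change against restricted mice was 1.73 (SE 0.16, adjusted p = 6.43e-11).

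Slc4a1 was close to the limit of detection, with 302 counts in all 48 libraries and at most 35 in 1. It was at 0 to 0.712 CPM in unrestricted mice (median 0.295), 0.0825 to 0.634 CPM in restricted mice (median 0.244) and 0.463 to 2.91 CPM in refed mice (median 1.02). Of the 16 refed mice, 13 were above every unrestricted mouse. Its log2 changes were 2.10 against unrestricted mice (SE 0.32) and 2.15 against restricted mice (SE 0.32), which the filter favoured as stated.

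The share of all genes that were called differed between the 2 refed comparisons. The 4 globins and Alas2 were all called higher in refed than in unrestricted mice, where 0.738% of all tested genes were called and 0.467% were called higher, and they held ranks 1, 2, 4, 6 and 8 by p. Slc4a1 was called too, at rank 10, but its passing the filter already required high refed values, and the same holds for its calls given further on. The other genes among the first 10 were Vegfa, an angiogenic growth factor (log2 change -0.34), the clock genes Per2 (0.65) and Per3 (0.36), and the fatty acid binding protein gene Fabp7 (-0.94). The 4 globins and Alas2 were also called higher in refed than in restricted mice, but there 15.2% of genes were called and 8.38% were called higher. Hba-a1, Hba-a2, Hbb-bt and Alas2 were 4 of only 13 genes, 0.0749% of those tested, with every refed mouse above every restricted mouse. The 2 comparisons share the refed mice.

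Food restriction by itself was not followed by a detected change in the level of any of the 6 genes. None of the 6 genes was called between restricted and unrestricted mice, where 15.2% of genes were called and 7.84% were called lower. The log2 changes were below 0, at -0.24 for Hba-a1, -0.15 for Hba-a2, -0.13 for Hbb-bs, -0.34 for Hbb-bt, -0.25 for Alas2 and -0.06 for Slc4a1 (edgeR adjusted p from 0.249 to 0.954). In knockout mice alone Hba-a2 (0.01), Hbb-bs (0.02) and Slc4a1 (0.52) were not below 0, and Slc4a1 also crossed 0 with limma voom, with the library number as a block and within libraries up to 28. With a standard error of 0.14 to 0.19 for the globins and Alas2, smaller decreases were not resolved.

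Within the libraries numbered up to 28, the change from unrestricted to refed was at least as large. There 16 refed and 5 unrestricted mice gave log2 changes of 1.48 for Hba-a1, 1.43 for Hba-a2, 1.57 for Hbb-bs, 1.84 for Hbb-bt and 1.63 for Alas2 (edgeR adjusted p from 0.00527 to 0.0128). Those 5 were called among 6 genes in all, and Slc4a1 was not (log2 change 2.75, adjusted p = 0.133). Against the 7 restricted mice of the same libraries the log2 changes of the globins and Alas2 ran from 1.72 to 2.25, all called (adjusted p of at most 1.73e-05). Without the 3 libraries that held muscle or white cell transcripts, these 5 were called in both comparisons, with log2 changes of 1.07 to 1.43 against unrestricted mice. For refed against restricted mice, the share of all genes called in these subsets is not given here. Over all libraries it was 15.2%.

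**Figure D2:**
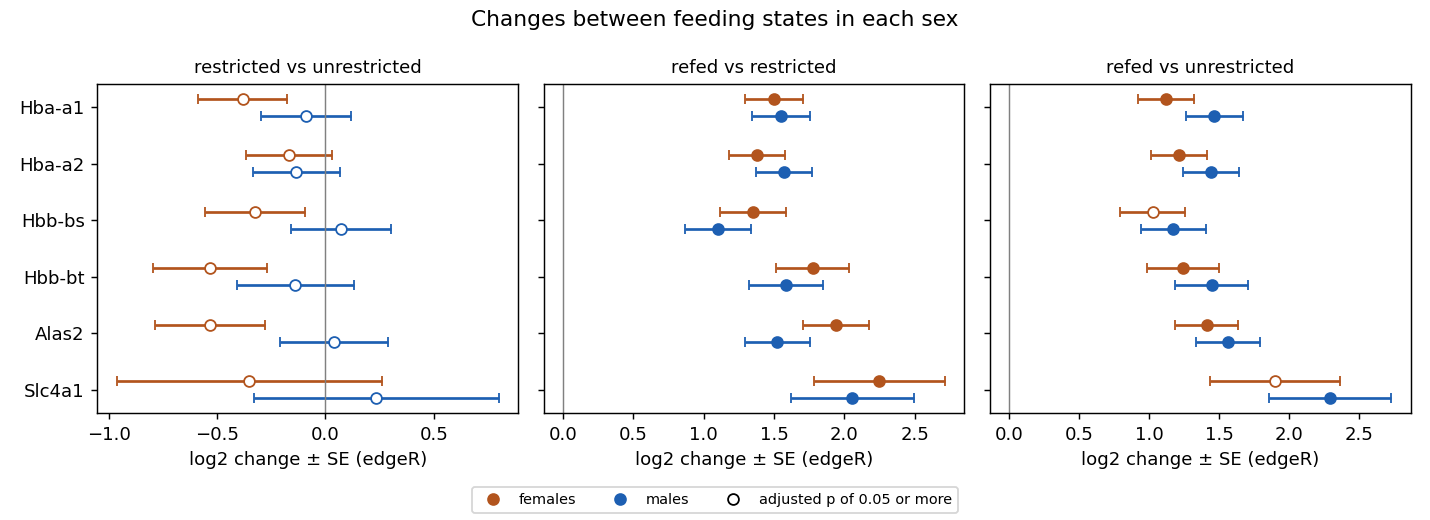
Log2 change with its standard error (edgeR) for each gene, in females and males, for the 3 pairs of feeding states; open circles have an adjusted p of 0.05 or more. All 6 genes lie to the right of 0 in both refed comparisons, and the restricted against unrestricted values, all open, lie between -0.54 and 0.23 on an axis of their own.

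Both sexes showed the refed increase, with different numbers of calls. In males, the 4 globins and Alas2 were called higher in refed than in unrestricted mice (0.167% of genes called), with log2 changes from 1.17 for Hbb-bs to 1.56 for Alas2, and Slc4a1 was at 2.29. Each of the 4 globins and Alas2 was higher in every refed male than in every unrestricted male, as were 0.0461% of all genes. In females, 4 were called (0.0403% of genes called): Alas2 by 1.41 (SE 0.23, edgeR adjusted p = 0.00145), Hba-a2 by 1.21 (SE 0.20, 0.00163), Hba-a1 by 1.12 (SE 0.20, 0.00585) and Hbb-bt by 1.24 (SE 0.26, 0.0388). Hbb-bs (1.02, SE 0.23, adjusted p = 0.111) and Slc4a1 (1.90, SE 0.46, adjusted p = 0.186) were not called in females. Without the 3 libraries that stood apart, Hbb-bs was not called in males (1.09, adjusted p = 0.0646), nor Slc4a1 (1.87, 0.106), and Hbb-bt was not called in females (1.26, 0.0758). With the library number as a block, Slc4a1 was not called in males (2.58, 0.0661) and Hbb-bs was called in females (1.52, 0.000115). Within libraries up to 28 no member was called in either sex alone. Against restricted mice the 4 globins and Alas2 were called in each sex, where 6.1% of genes in females and 8.33% in males were called.

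A test of the difference itself found no gene of the set. Male minus female differences in the log2 change ran from 0.15 for Hbb-bs to 0.39 for Slc4a1 (edgeR adjusted p of at least 0.957), and the same test called 0 genes of the whole table; 3.75% of them had an unadjusted p under 0.05. A joint test of both feeding contrasts also gave 0 calls, and 6.35% of genes had an unadjusted p under 0.05.

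The unrestricted mouse with the most globin was a female inside the refed range for all 4 globins and Alas2. Female control unrestricted replicate 2, the Grin1fl/+ mouse and, at 8.5 months, the oldest, held 113 CPM of Hba-a1, 275 of Hba-a2, 823 of Hbb-bs, 122 of Hbb-bt and 10.2 of Alas2, against at most 78.4, 162, 532, 77.9 and 7.68 CPM in the other unrestricted females. Female control unrestricted replicate 3 also lay inside the refed range for Hbb-bs, Hbb-bt and Alas2. Without female control unrestricted replicate 2, Hbb-bs was called in females (log2 change 1.21, edgeR adjusted p = 0.0155). Without female knockout refed replicate 2, the mouse with the most globin at 2687 CPM over the 4 genes, 2 genes stayed called in females, and Hba-a1 (0.93, adjusted p = 0.0530) and Hbb-bt (1.01, 0.224) were lost. The female call of Hbb-bt was near the threshold, and it also ended without any 1 of female control unrestricted replicates 1, 3 and 4, female knockout unrestricted replicates 1 and 2, female control refed replicates 2 and 3, female knockout restricted replicate 2, male control unrestricted replicate 3 or male knockout unrestricted replicate 4 (log2 change 1.13 to 1.26). In males, Slc4a1 was not called without male control refed replicate 1 (1.87, adjusted p = 0.0916), nor Hbb-bs without male knockout refed replicate 4 (1.02, 0.0516). Genotype, age and any individual feature cannot be told apart in a single mouse.

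Beta globin was lower relative to alpha globin in males over all feeding states together. Over all feeding states, Hbb-bs was lower in males by a log2 value of -0.41 (SE 0.13, edgeR adjusted p = 0.134) and Hbb-bt by -0.44 (SE 0.15, 0.136), while Hba-a1 (-0.20, SE 0.12, 0.357) and Hba-a2 (-0.10, SE 0.11, 0.674) were closer to 0. No member was called in that comparison, where 0.357% of genes were; with the library number as a term Hbb-bs (-0.45, adjusted p = 0.0239) and Hbb-bt (-0.50, 0.0299) were called, and within libraries up to 28 neither was (-0.29 and -0.43). Counts of the beta pair per count of the alpha pair were 1.65 ± 0.307 in males and 1.98 ± 0.358 in females (SD, n = 24 each; permutation test with 100000 resamples, two-sided p = 0.00104, adjusted over 16 composition tests 0.00416). By feeding state, males and females were at 1.66 and 2.09 in unrestricted and 1.83 and 1.92 in restricted mice (n = 8 each). Refed males and females were at 1.46 and 1.93 (n = 8 each), and the refed males included the library with muscle transcripts, at 0.955. Whether the gap differs between states was not tested. Unrestricted mice also differed by library number, with 1.47 ± 0.0584 up to 28 (n = 5) and 2.06 ± 0.483 from 29 (n = 11). Up to 28, the 3 unrestricted females were at 1.37 to 1.52 and the 2 males at 1.46 and 1.48. With all states together, male minus female was -0.36 within the libraries numbered up to 28 (permutation p = 0.0004). It was also -0.36 within the others (exact permutation p = 0.0320).

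The make-up of the beta pair itself shifted with feeding. Hbb-bt made up 11.1 ± 1.01% of beta counts in restricted mice, 12.5 ± 0.868% in unrestricted mice and 14.4 ± 0.902% in refed mice (SD, n = 16 each). Refed mice ran from 13.1% to 15.6% and restricted mice from 9.04% to 12.4%, so these did not overlap. The differences of 1.85 percentage points (refed minus unrestricted) and 3.30 (refed minus restricted) both reached the lower limit of 100000 resamples in a permutation test on both sides (p = 2e-05, adjusted 0.00016). Restricted minus unrestricted was -1.46 points (permutation p = 0.0001, adjusted 0.000533).

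The shift was of similar size within library numbers. Up to 28, refed minus unrestricted was 2.04 points (exact permutation p = 0.00256), refed minus restricted 3.44 (exact permutation p = 1e-05) and restricted minus unrestricted -1.40 (exact permutation p = 0.0631); from 29, the last was -1.43 (exact permutation p = 0.00048). The share rests on how reads common to both genes were divided, which was not tested against other divisions. By contrast, Hba-a1 was 28.1 ± 2.99%, 26.9 ± 1.98% and 27.6 ± 2.10% of alpha counts in unrestricted, restricted and refed mice, and none of these differences passed (permutation test, adjusted p of at least 0.289).

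Alas2 was higher per globin count in refed mice. There were 8.66 ± 1.73 Alas2 counts per 1000 globin counts in unrestricted, 8.40 ± 2.47 in restricted and 10.4 ± 0.788 in refed mice, and the refed range lay inside that of the restricted mice. Refed mice exceeded unrestricted mice by 1.70 (permutation p = 0.00144, adjusted 0.00461) and restricted mice by 1.96 (p = 0.00488, adjusted 0.0130). Within libraries up to 28 the first difference was 0.79 (exact permutation p = 0.102) and the second 2.18 (exact permutation p = 0.0198), so the excess over unrestricted mice did not hold there. These 4 ratios were chosen after the data had been seen.

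**Figure D3:**
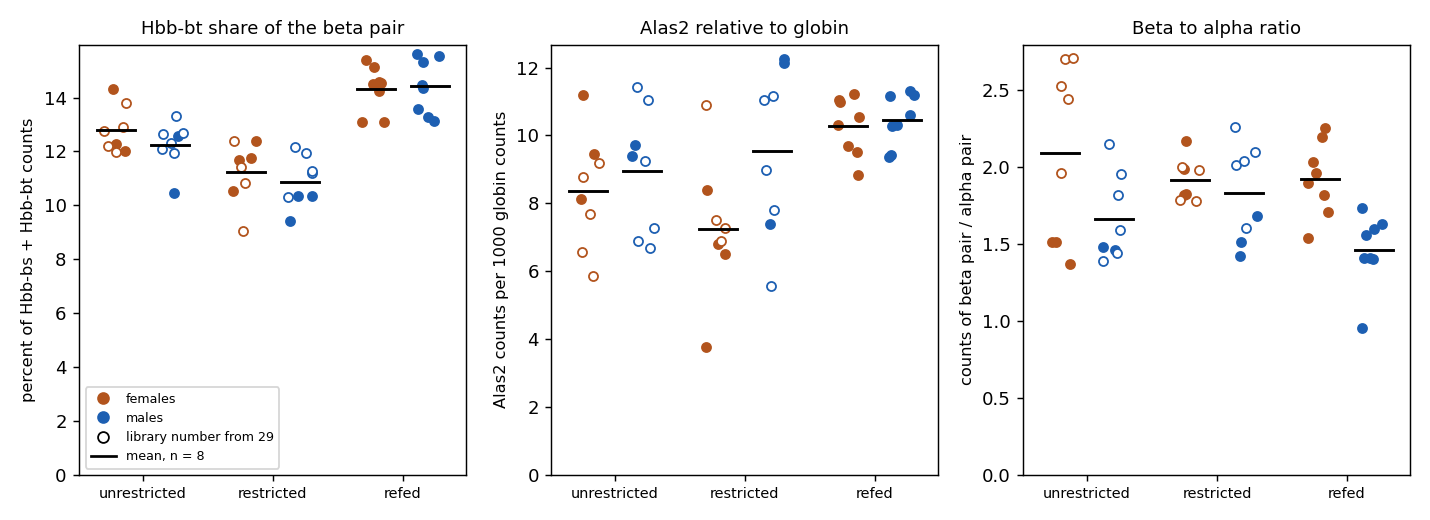
Percent of beta counts from Hbb-bt, Alas2 counts per 1000 globin counts, and beta counts per alpha count in each mouse, by feeding state and sex; open circles are libraries numbered from 29 and bars are means of 8 mice. The Hbb-bt share is lowest in restricted mice (9.04% to 12.4%) and highest in refed mice (13.1% to 15.6%), and the beta to alpha ratio lies lower in refed males (mean 1.46) than in refed females (mean 1.93).

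On the scale of CPM per kilobase of transcript, refed mice held 1019 ± 394 of Hbb-bs, 537 ± 229 of Hba-a2, 179 ± 75.7 of Hba-a1, 164 ± 72.6 of Hbb-bt, 6.47 ± 2.52 of Alas2 and 0.264 ± 0.145 of Slc4a1 (SD, n = 16). Hba-a1 and Hbb-bt lay within each other's spread in every feeding state, at 74.0 ± 25.6 and 66.8 ± 35.1 in unrestricted and 61.7 ± 16.8 and 51.3 ± 19.7 in restricted mice. The ranges of Hbb-bs and Hba-a2 also overlapped in refed mice (611 to 2211 against 329 to 1096).

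Globins and Alas2 rose and fell together from mouse to mouse within groups. After the group mean was taken from each mouse's log2 CPM, the alpha and beta pair sums correlated with r = 0.86 over 48 mice (Spearman's rho 0.84), Alas2 and the alpha pair with r = 0.85 (rho 0.81), and Alas2 and the beta pair with r = 0.78 (rho 0.77), each with a permutation p of 1e-05, the smallest that could be given, and 2.67e-05 after adjustment over 8 relations. Leaving out the 2 mice farthest from the median of the first measure gave 0.87, 0.84 and 0.77. Within the libraries up to 28 the 3 values were 0.85, 0.89 and 0.79 (n = 28), and within the others 0.88, 0.75 and 0.73 (n = 20). These genes share a library and its depth.

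Slc4a1, with few counts, followed less closely. Its r with the alpha pair was 0.31 (permutation p = 0.0352, adjusted 0.0592; rho 0.26, p = 0.0721) and fell to 0.19 (p = 0.198) without the 2 farthest mice, and it was 0.18 with a prior count of 0.5. It was -0.12 in unrestricted, 0.19 in restricted and 0.68 in refed mice, and 0.56 within libraries up to 28 and -0.08 within the others. With Alas2 it was 0.19 (permutation p = 0.184, adjusted 0.245; rho 0.14, p = 0.348).

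**Figure D4:**
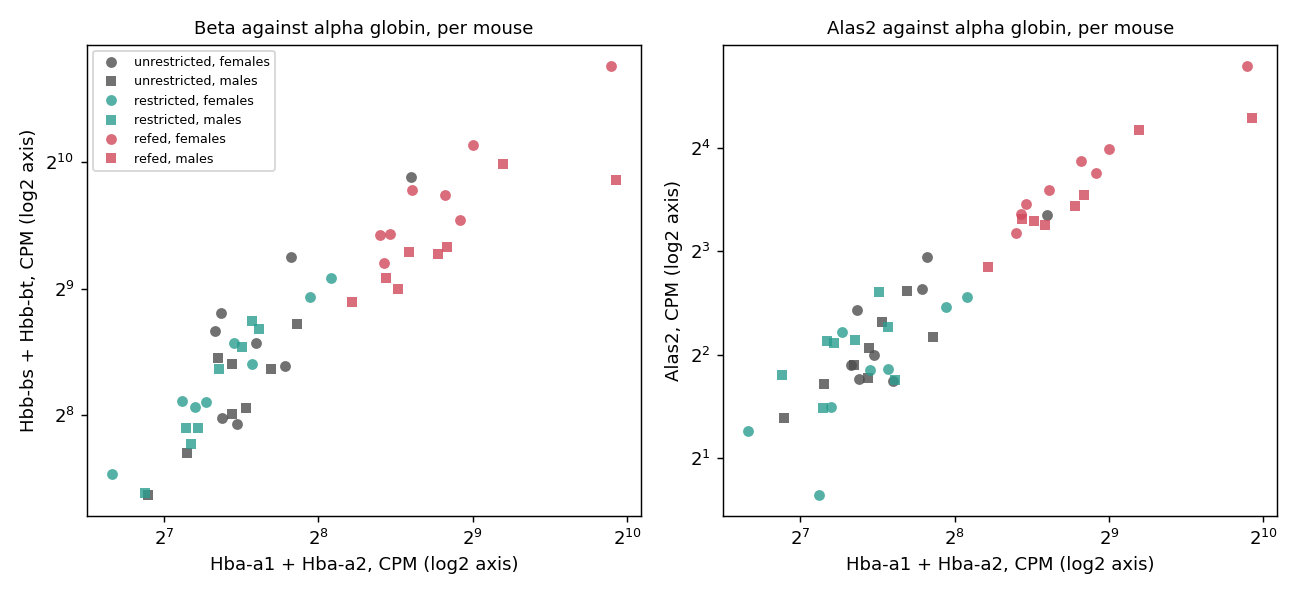
Beta globin and Alas2 against alpha globin in each mouse, in CPM on log2 axes, coloured by feeding state, with circles for females and squares for males. Refed mice occupy the upper right of both panels, from 298 to 972 CPM of alpha globin, and the points of all 3 states lie along 1 band.

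In 3 lists of other red cell genes, none of the genes that passed the filter was called between unrestricted and refed mice. Of 12 genes for heme synthesis and mitochondrial iron import, all tested, 0 were called (median log2 change 0.01, against 0.00 over all genes); Alas1 was at 47.9 ± 3.75 and 49.5 ± 4.20 CPM (edgeR log2 change 0.05, SE 0.04, adjusted p = 0.593). Among 14 red cell membrane and cytoskeleton genes, 8 were tested and 0 called (median 0.07). Of 21 erythroid factors and late red cell genes, 11 were tested and 0 called (median 0.01); Tent5c, a poly(A) polymerase gene, came closest at 0.46 (SE 0.12, adjusted p = 0.0588), and was called in a fit with no filter (adjusted p = 0.0407). Over all tested genes 0.738% were called.

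Between restricted and refed mice, where 8.38% of genes were called higher and 6.79% lower, more of these genes moved, by small amounts. Of the 12 heme genes tested, 3 rose, among them Cpox (0.12), an enzyme of the pathway, and Slc25a37 (0.15), a mitochondrial iron importer. In the membrane list, Dmtn (0.16) and Tmod1 (0.12), both of the cytoskeleton, rose, 2 of 8. Tent5c (0.79) and Bpgm (0.11), which makes the hemoglobin regulator 2,3-bisphosphoglycerate, rose and Tfrc (-0.34), the transferrin receptor, and Ypel4 (-0.16) fell, 4 of 11 (edgeR adjusted p from 8.06e-07 to 0.0385 over the 9 genes called). With no filter, 2 membrane genes were called higher, 1 of them under the filter. In that fit 3 erythroid genes were called higher, 2 of them under the filter.

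Several late red cell genes lay under the filter, and a fit with no filter gave values for them. It called 2 genes of the erythroid list, Tent5c and Ahsp, and 1 gene of the membrane list higher in refed than in unrestricted mice. Ahsp, the chaperone of free alpha globin, had 9 counts in 7 of 16 unrestricted mice, 17 in 10 of 16 restricted mice and 56 in 15 of 16 refed mice. In that fit Ahsp was higher in refed mice by 2.81 than in unrestricted mice (edgeR adjusted p = 0.00064); it is rare, and such a fitted change depends on the prior count. Epb42 (8, 9 and 27 counts), of the membrane skeleton, and Trim10 (12, 12 and 39) were not called against unrestricted mice (adjusted p = 0.198 and 0.186).

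Transcription factor genes of the erythroid list differed widely in counts. Gata1 had 8 counts in all 48 libraries, Gfi1b 1, Nfe2 47 and Klf1 74, while Tal1 had 2198 and Zfpm1 16486. Klf1 was at 20, 27 and 27 counts in unrestricted, restricted and refed mice. The embryonic globin genes Hba-x, Hbb-bh0, Hbb-bh1 and Hbb-bh2 had 0 counts, and Hbb-y had 15. Neuroglobin, Ngb, was at 12.1 ± 2.48, 13.03 ± 2.96 and 11.5 ± 2.76 CPM, and cytoglobin, Cygb, at 66.3 ± 5.70, 67.0 ± 4.42 and 71.9 ± 6.10 CPM in unrestricted, restricted and refed mice. Cygb was called higher in refed than in restricted mice only (0.10, SE 0.03, edgeR adjusted p = 0.0299), and that call was not made with no filter.

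Of 15 tested genes of iron handling and heme breakdown, 1 was called higher and 3 lower in restricted than in unrestricted mice (15.2% of all genes called), 2 higher and 1 lower in refed than in restricted mice (15.2%), and 1 higher in refed than in unrestricted mice (0.738%). With no filter, 0 genes of the list were called lower in refed than in restricted mice, and 2 lower in restricted than in unrestricted mice. Cd163, the macrophage receptor for hemoglobin bound to haptoglobin, was 0.89 higher in restricted than in unrestricted mice (SE 0.12, edgeR adjusted p = 5.79e-07), 0.38 lower again in refed than in restricted mice (log2 change -0.38, SE 0.12, 0.0229), and still 0.51 higher in refed than in unrestricted mice (SE 0.13, 0.0410), a call that was not made with no filter (adjusted p = 0.0672). Transferrin, Trf, fell by 0.33 with restriction (SE 0.05, adjusted p = 1.03e-05) and rose by 0.37 from restricted to refed mice (SE 0.05, 1.10e-06). Slc40a1, the iron exporter ferroportin, fell by 0.23 with restriction and Steap3, a ferrireductase, by 0.32 (adjusted p = 0.00837 and 0.0287), and Steap3 was 0.49 higher in refed than in restricted mice (0.000466). Tfrc, from the erythroid list, rose by 0.27 with restriction (4.36e-05).

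No tested marker of other blood cells was called between refed and unrestricted mice, and 1 platelet marker was higher in refed than in restricted mice. Summed platelet markers were at 5.20 ± 1.05, 4.32 ± 0.706 and 5.26 ± 0.877 CPM in unrestricted, restricted and refed mice, with 3 genes tested. Pf4, a platelet chemokine, was higher in refed than in restricted mice by 1.08 (SE 0.23, edgeR adjusted p = 0.000631). It was at 0.681, 0.364 and 0.788 CPM in unrestricted, restricted and refed mice. With no filter, 1 of 8 platelet and 1 of 10 white cell markers were called lower in restricted than in unrestricted mice. With the filter, 15.2% of all genes were called in that comparison. White cell and neutrophil markers were at 15.6 ± 12.7, 11.4 ± 4.84 and 11.7 ± 3.97 CPM, and bone marrow precursor markers at 3.66 ± 3.21, 2.84 ± 1.03 and 3.47 ± 1.70 CPM, with 0 of 4 and 0 of 3 tested genes called in either refed comparison. Of the bone marrow precursor markers, Elane, Ctsg and Ms4a3 had 7, 8 and 7 counts in all. The others had more, with Mpo at 71, Ltf at 278, Camp at 322, Ngp at 359 and Prtn3 at 658.

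Vessel markers did not move as 1 group. Brain endothelium markers summed to 280 ± 26.1, 319 ± 35.9 and 295 ± 25.1 CPM in unrestricted, restricted and refed mice, of which the glucose transporter gene Slc2a1 gave 80.2, 126 and 95.4 CPM. In restricted against unrestricted mice 2 of the 12 endothelial genes were called higher, Slc2a1 (0.65) and Slco1a4 (0.21), and 5 lower, among them Kdr (-0.58) and Tek (-0.51). With no filter 2 were called higher and 4 lower. Pericyte and smooth muscle markers were lowest in restricted mice, at 186 ± 11.1, 165 ± 20.0 and 191 ± 17.1 CPM. Of the 12 endothelial genes only Kdr, a VEGF receptor, differed between refed and unrestricted mice (-0.34, SE 0.08, edgeR adjusted p = 0.0341); with no filter Slc2a1 (0.25) and Cldn5 (-0.29) were called as well. Across mice, the alpha pair correlated with summed platelet markers at r = 0.30 (permutation p = 0.0370, adjusted 0.0592; rho 0.31, p = 0.0317) and with endothelial markers at r = 0.07 (p = 0.621; rho -0.01, p = 0.934). With the 2 farthest mice left out these were 0.30 and 0.02, and with age in months r was 0.03 (permutation p = 0.848). The part of blood volume in the refed change was not tested, since no measure of it was at hand beyond these markers.

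**Figure D5:**
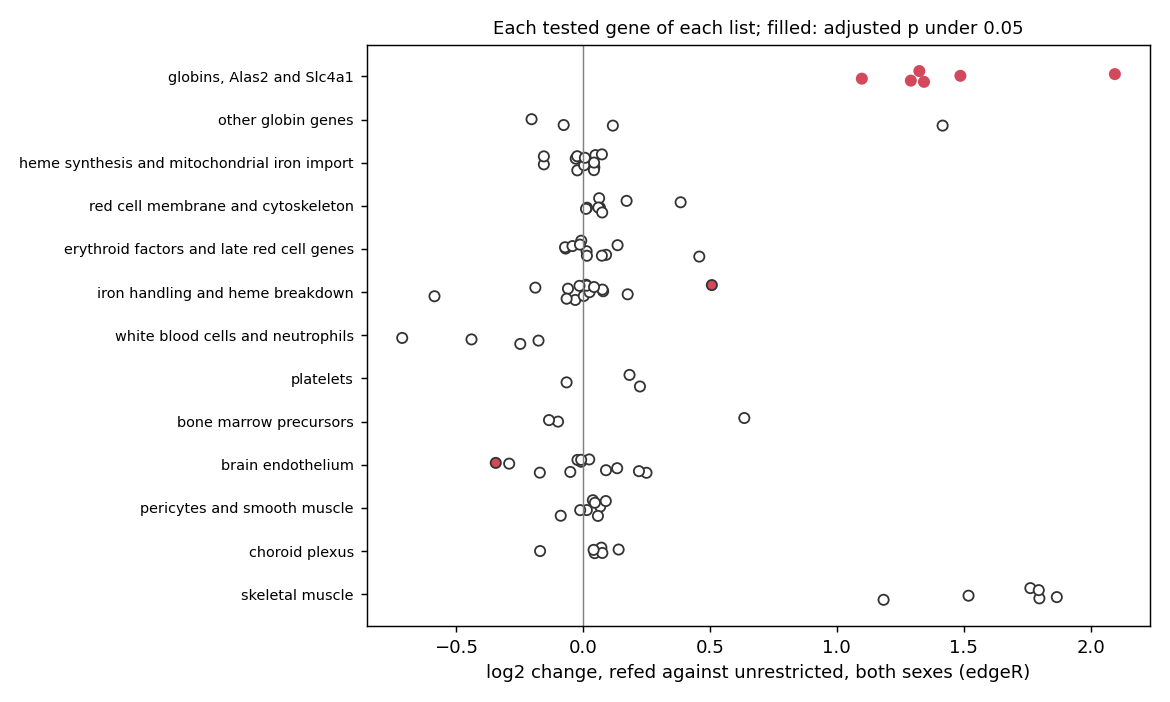
Log2 change between refed and unrestricted mice (edgeR, both sexes) for each tested gene of each list; filled points have an adjusted p under 0.05. The 6 globin and erythroid genes lie at 1.10 to 2.10, Cd163 (0.51) and Kdr (-0.34) are the other filled points, and the skeletal muscle genes on the right are open; their summed level was 4294 CPM in 1 refed library and at most 14.9 CPM in the other refed libraries.

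No difference between knockout and control mice was detected in these genes. Over all sexes and feeding states, 0 of 6 were called between knockout and control mice (0.00576% of genes called), with log2 changes of -0.15 for Alas2, -0.06 for Hba-a1, -0.09 for Hba-a2, 0.00 for Hbb-bs, 0.04 for Hbb-bt and -0.22 for Slc4a1 (SE 0.11 to 0.15, and 0.30 for Slc4a1; edgeR adjusted p = 1.00 for each). None was called in unrestricted, restricted or refed mice alone, where 0.00576%, 0.0115% and 0.00576% of genes were called. Among unrestricted mice Alas2 was at -0.48 (SE 0.25, unadjusted p = 0.0559) and Slc4a1 at -0.98 (SE 0.57, unadjusted p = 0.0918). Tested as an interaction, genotype and feeding gave 0 calls, and 4.56% of genes had an unadjusted p under 0.05.

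Within each genotype the refed increase was seen. Refed against unrestricted log2 changes were 1.19, 1.18, 0.97, 1.20, 1.20 and 1.53 in controls and 1.40, 1.47, 1.22, 1.49, 1.77 and 2.66 in knockouts, for Hba-a1, Hba-a2, Hbb-bs, Hbb-bt, Alas2 and Slc4a1 in turn. In controls alone, where 0.098% of genes were called, Hbb-bs (edgeR adjusted p = 0.0853) and Slc4a1 (0.170) were not called and the other 4 were. In knockouts alone, where 0.121% of genes were called, the 4 globins and Alas2 were called.

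Among all other genes, those with log2 CPM most like the alpha pair sum over the 48 libraries were Ube2l6 (Pearson r = 0.86), Isg20 (0.82), Tent5c (0.74), Ifit3b (0.73), Plaat3 (0.68), Daam1 (0.66), Nhsl1 (0.66), Scarb2 (0.66), Phkg1 (0.65) and Inmt (0.64). The values for Alas2, Hbb-bt, Hbb-bs and Slc4a1 were 0.95, 0.94, 0.92 and 0.77. On deviations from group means, which leave the feeding difference out, Isg20 (0.70), an exonuclease gene, and Ube2l6 (0.68), a ubiquitin-like conjugating enzyme gene, led again, and the first 10 also held Cd151 (0.60), Psenen (0.60), Sord (0.59), Pvalb (0.59), Rcbtb2 (0.58), Szrd1 (0.57) and Cd24a (0.57). Ube2l6 and Isg20 were the only 2 genes in both lists. Refed mice were higher than unrestricted mice in Isg20 by 1.13 (SE 0.21, edgeR adjusted p = 0.00168) and in Ube2l6 by 0.51 (SE 0.10, 0.00334). Both genes were picked for likeness to a sum that was itself higher in refed mice. Their differences were therefore favoured by the choice and are given as a description. Isg20 was low, at 0.696, 0.702 and 1.43 CPM in unrestricted, restricted and refed mice, against the filter's minimum of 0.951 CPM. These correlations are descriptions over libraries that share depth and processing.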

How the data were processed

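Polyadenylated RNA of 48 mouse brain hemispheres was sequenced, 1 library per mouse. The authors deposited estimated counts per gene, and their processing used fastp, STAR, Salmon and the mm39 genome, per the submitters' processing notes; how these tools were combined is not given in the sources used here. Of the nonzero estimated counts in the deposited table, 66.1% were whole numbers, and all were rounded to whole numbers before testing. Library totals had a median of 10515486.

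Genes were filtered with edgeR's filterByExpr (minimum count 10, minimum total 15), scaled by TMM and tested with edgeR's quasi-likelihood test over all 48 libraries and 12 groups. P-values were adjusted by the Benjamini-Hochberg method over 17352 genes, and an adjusted p under 0.05 is a call. Feeding, sex and genotype were compared by contrasts averaged over the other factors. CPM are counts per 1000000 on TMM-scaled totals. Tools were R 4.3.3, edgeR 4.0.16, limma 3.58.1, DESeq2 1.42.0, Python 3.11.15, NumPy 2.4.6, SciPy 1.17.1 and Matplotlib 3.10.9, with GENCODE M39 for gene positions. The count test was tested on simulated data. Relations across mice used log2 CPM with a prior count of 2.

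The 6 members and the gene lists were chosen with earlier results of these data known. Named genes were the members, the members of the lists that were called, and the 10 genes most like the alpha pair. Alas1, Tent5c, Ngb, Tal1, Zfpm1, Prtn3, Ngp, Camp, the genes under the filter and the first 10 genes by p were added after their values were seen. Alternatives covered scaling, filter, tool, age, library number and leaving out each library; leaving out 3 libraries that stood apart, contrasts within a genotype and the composition ratios were added after seeing the data. The p-values measure the spread between these mice and treat them as independent. Nothing in the labels says whether mice shared litters or days, so independence could not be checked. Values of some genes of the lists and of the genes most like the alpha pair are not reported here.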

Additional observations from a re-analysis of the deposited data

Results flagged for a closer look

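In 7 of 72 combinations of gene and group of 4 mice, 1 mouse stood apart from the other 3 by Dixon's criterion, and chance gives about 1 in 20. In male knockout refed mice, the highest mouse had 153 CPM of Hba-a1 (nearest 93.2), 860 CPM of Hbb-bs (nearest 468) and 155 CPM of Hbb-bt (nearest 73.6), all in replicate 4. In male control refed mice, replicate 1, the library with muscle transcripts, had 709 CPM of Hba-a2 (nearest 321) and 783 CPM of Hbb-bs (nearest 550). In female knockout refed mice, replicate 2 had 1468 CPM of Hbb-bs (nearest 731). In female control restricted mice, the highest Slc4a1 value was 0.405 CPM (nearest 0.123), which rests on few counts.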

How the results depend on the processing

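No paired analysis was possible because replicate numbers were given in accession order only and pair no mice. Of 5551 recomputed values of single genes, 135 had the opposite sign to the main value; in all 135 neither value was called. Among the recomputed values, 33 lost and 13 gained a call, and 1057 of 1063 recomputed counts of called members stayed within 1.5 times. Refed against unrestricted, the 4 globins and Alas2 were called whichever library was left out. In females alone, leaving out 1 library gave 2 to 5 calls. Within libraries numbered up to 28, 0 genes were called in females alone and 0 in males alone, where few unrestricted mice remain. Between males and females, 2 genes were called with no filter, with limma voom weights or with the library number as a block, against 0. The relation of Slc4a1 to the alpha pair fell to r = 0.18 with a prior count of 0.5 and to 0.19 without the 2 farthest mice; the cause was not tested. Refed against unrestricted, 128 genes were called in all, against 197 with DESeq2, 894 with limma voom, 87 without the 3 libraries that stood apart, 19 with the library number as a block and 6 within libraries up to 28. Depth limits Slc4a1 and the red cell genes under the filter most.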
